A study of Mus musculus with 6 samples.

Results

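The SOCS proteins and the Pim kinases were followed as 10 genes chosen by name, the 8 members of the suppressor of cytokine signalling family (Cish and Socs1 to Socs7) and the kinases Pim1 and Pim2, out of 39179 gene rows per library. All 10 were found, and all 10 passed the filter on low counts. The libraries are polyA-selected RNA sequencing of regulatory T cells (Tregs) made in culture, of which 3 had received DEL-1-Fc and 3 the Fc control. DEL-1 is a secreted protein that binds integrins, and the Fc control is the antibody constant region of the fusion alone. Both groups began as naive CD4+ cells from the spleens of wild type C57BL/6 mice of 6 weeks, and both were kept for 3 days with anti-CD3 at 2 µg/ml (read as µg, the symbol before "g" being garbled), 1 µg/ml anti-CD28, 5 ng/ml TGFβ1 and 40 ng/ml IL-2. IL-2, a direct inducer of several of the 10 genes, was thus supplied to both groups, and the cells are induced Tregs of a short culture rather than Tregs from an animal. The labels do not say whether the replicates were separate animals or cultures, so the p-values rest on a spread among libraries that may be technical.

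Cytokines such as IL-2, IL-6 and interferon-γ bind receptors that carry Janus kinases (JAKs), and these phosphorylate STAT transcription factors. SOCS genes are themselves switched on by STATs, and their proteins return to the receptor or its kinase and shut the signal off, using an SH2 domain to find phosphorylated targets and a SOCS box to recruit a ubiquitin ligase. The Pim kinases are serine/threonine kinases with no regulatory domain, so their activity follows the amount of protein made, and STAT5 downstream of IL-2 is a known inducer of them in T cells.

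The promoters of the family were searched for short words that STAT proteins and interferon regulatory factors are known to bind, and every match found among the members is shown. In the RefSeq promoter windows of GRCm38.p6, from 250 bases before to 50 after a gene's start, the STAT word TTCNNNGAA (a palindrome, so both strands are covered) occurred 2 times for Cish and once for Socs3. The words below are in capitals, read along the gene's strand, at chr9:107296654-107296683 for Cish (plus strand) and chr11:117969501-117969530 for Socs3 (minus strand). The first Cish word starts on the RefSeq start base itself, while the Socs3 word lies at -154 to -146 from its start. The third line shows Socs1 at chr16:10785597-10785626 (minus strand), where 2 overlapping matches to the interferon regulatory factor word, GAAA repeated after any 2 bases and searched on both strands, lie between -83 and -68.
Cish: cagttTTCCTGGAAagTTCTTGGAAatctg
Socs3: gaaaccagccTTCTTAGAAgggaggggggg
Socs1: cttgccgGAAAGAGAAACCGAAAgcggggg
Of 32851 windows of this length, 8.3% held at least 1 TTCNNNGAA and 0.457% held 2 or more, and 3.44% held the interferon regulatory factor word. The STAT word with the longer spacer, TTC and GAA around any 4 bases, was in 6.95% of all windows and in none of those of Cish, Socs1, Socs3, Socs4, Pim1 or Pim2. No match to any of the 3 words was present in the windows of Socs4, Pim1 or Pim2. Promoters of Socs2, Socs5, Socs6 and Socs7 were not analysed here. Matches are letters in a window and do not show binding.

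A second kind of control acts on Socs1 after transcription. The microRNA miR-155, which Foxp3 is known to induce, targets Socs1 in Tregs and so sustains IL-2 signalling. Its mature sequence (mmu-miR-155-5p, RefSeq, GRCm38.p6, chr16:84714143-84714165) is shown with its seed, bases 2 to 8, in capitals, above the Socs1 3′ UTR bases 8 to 37 of the GENCODE M21 transcript with the matching 7 letters in capitals.
mmu-miR-155-5p: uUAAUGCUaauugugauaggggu
Socs1: ccgctgtgccgcAGCATTAagtgggggcgc
Among the members with a 3′ UTR in the model used, Socs1 had 1 such match at base 20, Socs6 had 1 at base 3210, and Cish, Socs2, Socs3, Socs4, Socs5, Socs7 and Pim1 had none. Of 2806 genes whose 3′ UTR was close in length to the 1993 bases of Socs1 (1595 to 2490 bases), 11.8% held the same letters. The mature microRNA was not measured by these libraries.

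The library totals ran from 33364166 to 61967687 counts, and DEL-1-Fc replicate 1 was the shallowest. On the first principal component, with 44% of the variance, it lay at 47.7, against 14.3 and 12.8 for DEL-1-Fc replicates 2 and 3. The Fc libraries lay at -27.5 to -22.7. On the second principal component, with 23.3% of the variance, DEL-1-Fc replicate 1 was far from both other DEL-1-Fc libraries. The 5 CD4 T cell markers summed to 2172 to 2349 CPM (counts scaled to library size with TMM) in Fc and 2169 to 2447 CPM in DEL-1-Fc. The 5 Treg markers summed to 3564 to 3952 and 3601 to 4108 CPM, most of it Il2ra (means of 2463 and 2552 CPM). The Treg markers did not move together. Foxp3 was called higher (log2 fold change 0.54, edgeR adjusted p = 0.0166) and Ctla4 lower (-0.30, edgeR adjusted p = 0.031). Il2ra, Ikzf2 and Tnfrsf18 were not called. Markers of other cells were low. The 2 CD8 markers summed to 10.1 to 10.4 CPM in Fc and 11.9 to 12.8 in DEL-1-Fc, the 3 NK markers to 1.37 to 1.60 and 1.95 to 2.28, and the 4 dendritic cell markers to 8.91 to 9.02 and 6.51 to 7.06, so those 3 sums did not overlap between the groups. Among the markers in those 3 sums, Cd8a (0.78, edgeR adjusted p = 0.00607) and Klrd1 (NK, 0.55, edgeR adjusted p = 0.0441) were called higher. Zbtb46, most of the dendritic sum, was called lower (-0.42, edgeR adjusted p = 0.0192), and Cd8b1 was not called (0.04). The defining genes Ncr1 and Klrb1c (NK), Itgax (dendritic), S100a8 (myeloid) and Hbb-bs (erythroid) had 3 counts or fewer in every library. The B cell sums were 4.33 to 5.22 and 4.84 to 5.55 CPM, the myeloid sums 0.164 to 0.408 and 0.335 to 0.641 CPM and the erythroid sums 0.0911 to 0.211 and 0.183 to 0.230 CPM, and the part of any of these marker sums in the results below was not tested.

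Of the 10 genes, Socs2 and Socs3 were higher with DEL-1-Fc and the other 8 did not pass the test (edgeR quasi-likelihood, adjusted p under 0.05 over all genes). Across all 14928 genes tested, 12.6% were called, 6.4% as higher and 6.22% as lower, so 2 of 10 in total, both higher, is close to the share called overall. The number called lower was 0. At an unadjusted edgeR p under 0.05, 2 members were lower and 2 higher. The share of all tested genes at that cut is not given here. DESeq2 called 1 member lower (Socs7) and limma-voom 0. Of all 14928 tested genes, DESeq2 called 2429 and limma-voom 1923, in either direction. The libraries of the 2 groups did not overlap for 5 of the 10, Cish, Socs2, Socs3, Socs7 and Pim1, against 34.8% of all tested genes. The median log2 fold change of the 10 was -0.06 and that of all tested genes 0.01. In these bulk libraries, fewer cells that express a gene and less of its RNA per cell cannot be told apart.

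**Figure D1:**
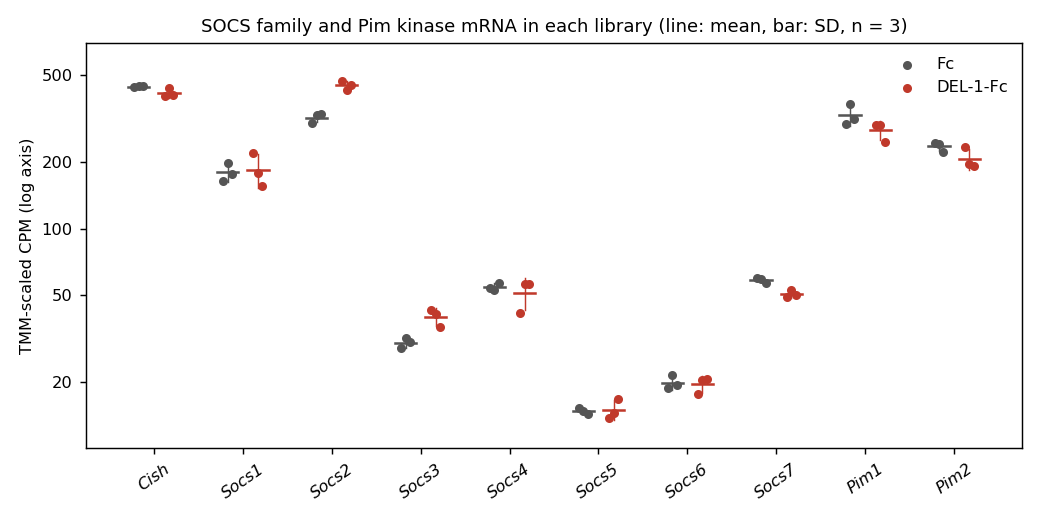
TMM-scaled CPM (log axis) of the 10 genes in each library, Fc in grey and DEL-1-Fc in red, with the mean as a line and the SD as a bar (n = 3). The 3 DEL-1-Fc points of Socs2 (428.3 to 470.8) and Socs3 (35.6 to 42.7) lie above all Fc points, while those of Socs1 spread from 155.6 to 219.6 across the Fc points.

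Socs2, best known as the brake on growth hormone receptor signalling and a STAT5 target, measured 301.5, 327.1 and 330.8 CPM with Fc alone against 470.8, 428.3 and 449.8 CPM in DEL-1-Fc. Every DEL-1-Fc library lay above every Fc library, by more than the spread within either group. The change was 1.41-fold (log2 fold change 0.49, SE 0.0688, edgeR adjusted p = 0.00213), and 15.3% of all tested genes had a larger absolute change. It passed in all 15 alternatives, with log2 fold changes of 0.45 to 0.53, and was 0.46 without DEL-1-Fc replicate 1 (adjusted p = 0.000374). Socs2 (ENSMUSG00000020027, chr10:95385362-95417180, minus strand, GRCm38) overlaps no other annotated gene.

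Socs3, which binds the IL-6 receptor chain gp130 and shuts off STAT3, measured 28.5, 31.8 and 30.4 CPM with Fc alone against 42.7, 40.8 and 35.6 CPM in DEL-1-Fc. The groups were again apart, with DEL-1-Fc replicate 3 nearest to Fc. The rise was 1.31-fold (log2 fold change 0.39, SE 0.084, edgeR adjusted p = 0.0169). Leaving out Fc replicate 1 (0.35, adjusted p = 0.0967) or Fc replicate 3 (0.40, adjusted p = 0.0737) ended the call, and it held without DEL-1-Fc replicate 1 (0.34, adjusted p = 0.00892). Socs3 (ENSMUSG00000053113, chr11:117966079-117970047, minus strand) overlaps no other annotated gene.

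Cish encodes CIS, the founding family member, a STAT5 target that dampens IL-2 and T cell receptor signals. It measured 438.0, 445.1 and 443.8 CPM with Fc alone against 399.2, 434.0 and 404.1 CPM in DEL-1-Fc. The DEL-1-Fc libraries were all below the Fc libraries, but the gap between the lowest Fc and the highest DEL-1-Fc library was small. The log2 fold change of -0.10 (SE 0.0628) did not pass (edgeR adjusted p = 0.343). Cish and Socs2 thus had changes of opposite sign in the same libraries, and the difference between those changes was not tested. Cish (ENSMUSG00000032578, chr9:107296026-107302784, plus strand) overlaps Gm17040 and Gm17041 on the other strand, which had 63 to 100 and 0 counts per library against 13102 to 27273 for Cish.

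Socs1, the direct inhibitor of JAK1, JAK2 and TYK2 that restrains interferon-γ and IL-2 signals, measured 165.1, 198.3 and 176.2 CPM with Fc alone against 219.6, 179.1 and 155.6 CPM in DEL-1-Fc. The DEL-1-Fc libraries enclosed the Fc range, with replicate 1 at the top and replicate 3 at the bottom. The log2 fold change was 0.04 (SE 0.124, edgeR adjusted p = 0.881), and its sign turned without DEL-1-Fc replicate 1 (-0.10) or Fc replicate 1 (-0.02). The spread between libraries was the limit here, since Socs1 had 7207 to 12149 counts. The miR-155 host transcript Mir155hg, looked up after the lists were made, measured 51.1, 54.6 and 49.6 CPM with Fc alone against 34.5, 45.5 and 42.3 CPM in DEL-1-Fc. It did not pass (log2 fold change -0.34, SE 0.1, edgeR adjusted p = 0.0573).

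The members Socs4 to Socs7 have longer amino-terminal regions and are linked more to growth factor receptors than to cytokines. Socs4 and Socs5, both connected to EGF receptor turnover, ranged over 52.8 to 56.6 and 14.3 to 15.2 CPM with Fc alone against 41.4 to 56.1 and 13.8 to 16.8 CPM in DEL-1-Fc. The low Socs4 value was that of DEL-1-Fc replicate 1 alone, and the log2 fold change went from -0.09 (adjusted p = 0.655) to 0.04 without that library. Socs5 (0.03, adjusted p = 0.885) and Socs6 (-0.02, adjusted p = 0.901, 18.8 to 21.6 CPM in Fc and 17.6 to 20.7 in DEL-1-Fc) overlapped between the groups, and both changed sign under other settings.

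Socs7, which binds the adaptor Nck and insulin receptor substrates, was the one of these 4 with groups apart. It measured 59.6, 59.0 and 56.7 CPM with Fc alone against 49.0, 52.7 and 49.9 CPM in DEL-1-Fc. The log2 fold change of -0.21 (SE 0.0607) just missed the threshold (edgeR adjusted p = 0.0553). It passed with DESeq2 (adjusted p = 0.0218), without robust dispersion (edgeR adjusted p = 0.0491) and on omitting DEL-1-Fc replicate 1 (-0.19, edgeR adjusted p = 0.026). Over all alternatives the adjusted p ran from 0.0218 to 0.21. Socs7 (ENSMUSG00000038485) lies at chr11:97362551-97398542 on the plus strand.

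**Figure D2:**
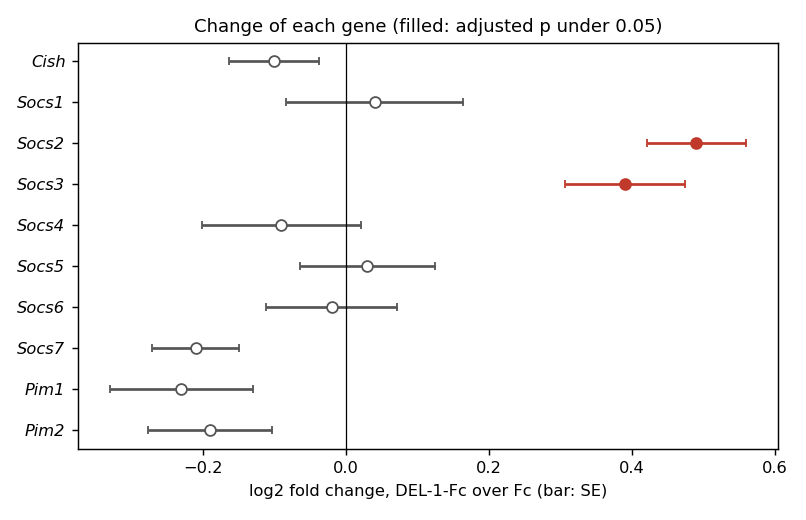
Log2 fold change of each gene, DEL-1-Fc over Fc, with its SE as a bar, and filled points where the edgeR adjusted p is under 0.05. Socs2 (0.49) and Socs3 (0.39) are the filled points, and Socs7, Pim1 and Pim2 lie between -0.23 and -0.19.

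Pim1, a kinase induced by STAT5 and STAT3 that promotes survival and cell cycle entry, measured 299.9, 370.0 and 315.1 CPM with Fc alone against 295.1, 296.4 and 248.7 CPM in DEL-1-Fc. The groups did not overlap, but the highest DEL-1-Fc library lay close below the lowest Fc library. The log2 fold change of -0.23 (SE 0.0998) did not pass (edgeR adjusted p = 0.178), and it was -0.14 without Fc replicate 2, the library with the high value. Pim1 (ENSMUSG00000024014, chr17:29490753-29496112, plus strand) overlaps Gm26885 on the other strand, which had 45 to 75 counts per library against 9683 to 22674 for Pim1.

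Pim2, a kinase that Foxp3 is known to induce in Tregs and that supports growth when mTOR is inhibited, measured 245.8, 243.2 and 222.2 CPM with Fc alone against 234.3, 196.9 and 192.2 CPM in DEL-1-Fc. DEL-1-Fc replicate 1 fell within the Fc range and the other DEL-1-Fc libraries lay below it. With all libraries the log2 fold change of -0.19 (SE 0.0868) did not pass (edgeR adjusted p = 0.197). Without DEL-1-Fc replicate 1 it was -0.28 and passed (edgeR adjusted p = 0.00529). Pim2 (ENSMUSG00000031155) lies at chrX:7878262-7883432 on the plus strand. Pim3, the third kinase of the family and not one of the 10, measured 88.7 to 94.9 CPM with Fc alone against 75.9 to 101.6 CPM in DEL-1-Fc and did not pass (-0.10, SE 0.109, adjusted p = 0.584). Like Pim2, it passed as lower on omitting DEL-1-Fc replicate 1 (-0.25, edgeR adjusted p = 0.0052).

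**Figure D3:**
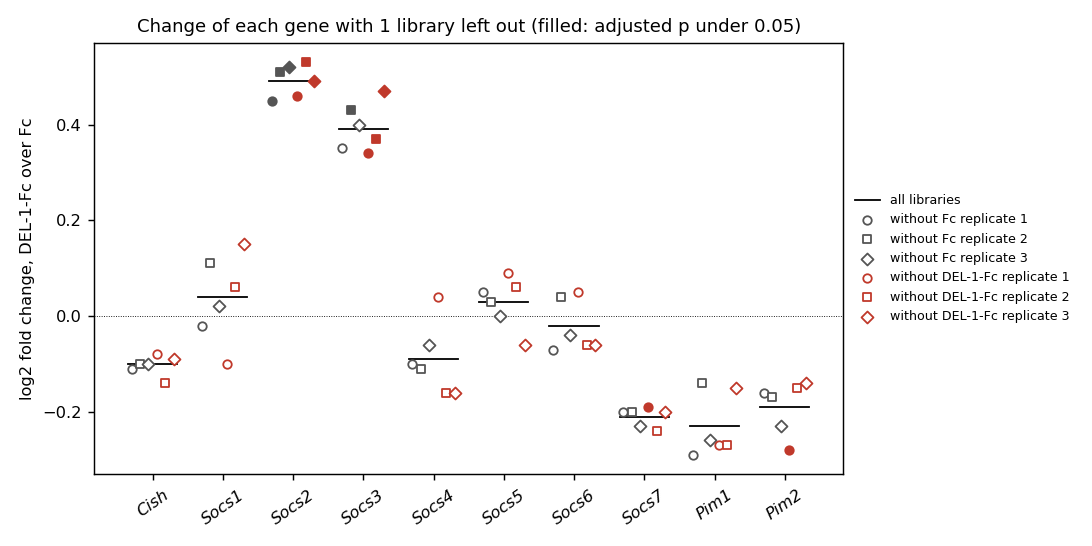
Log2 fold change of each gene with 1 library left out (grey symbols for an Fc library, red for a DEL-1-Fc library, filled where the edgeR adjusted p is under 0.05), beside the value from all libraries as a black line. Socs2 stays filled in every omission, Socs3 loses its call in 2, and Socs7 and Pim2 gain one without DEL-1-Fc replicate 1.

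How abundant the members were relative to each other depended on the transcript length assumed. Per kilobase of all annotated exons (RPKM from TMM-scaled counts), the order in Fc was Pim1 (97.7 ± 11.0), Pim2 (84.8 ± 4.64), Cish (68.9 ± 0.586), Socs1 (61.9 ± 5.81), Socs2 (33.6 ± 1.68), Socs3 (10.5 ± 0.573), Socs7 (8.04 ± 0.211), Socs4 (7.91 ± 0.283), Socs5 (2.30 ± 0.0724) and Socs6 (1.76 ± 0.131) (SD, n = 3). In that order only Socs7 and Socs4 overlapped as neighbours. In DEL-1-Fc, Pim1 (83.3 ± 8.08) overlapped Pim2 (74.3 ± 8.24), and Cish (64.3 ± 2.94) overlapped Socs1 (63.5 ± 11.1), while Socs2 followed at 47.2 ± 2.23 RPKM. The annotated exons of Socs2 span 9531 bases and those of Cish 6419, against 2222 and 2850 in the longest protein-coding transcript. Per kilobase of that transcript, a length chosen after seeing the data, Cish (155 ± 1.32) and Socs2 (144 ± 7.19) had the highest means in Fc, where Socs2 overlapped Pim1 (122 ± 13.7), and Socs2 (202 ± 9.56) stood above Cish (145 ± 6.62) in DEL-1-Fc. Under both lengths Socs1 lay above Socs3, and Socs4 to Socs7 were below Socs3.

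Socs2 made up a larger part of the family, and Cish a smaller part, in every DEL-1-Fc library than in any Fc library. Shares of a common sum are tied, so a larger Socs2 share lowers the others, and the Cish level itself did not pass (-0.10, edgeR adjusted p = 0.343). As a percent of the summed RPKM of the 8 SOCS genes, per kilobase of all exons, Socs2 made up 17.0, 16.9 and 17.8% with Fc alone against 22.6, 21.6 and 24.2% in DEL-1-Fc. Cish made up 36.6, 34.2 and 35.5% with Fc alone against 28.5, 32.6 and 32.2% in DEL-1-Fc, and Socs3 5.29 to 5.42% and 6.30 to 6.79%. On this length, shares of 4 of the 8 genes, Cish, Socs2, Socs3 and Socs7, did not overlap between the groups. For each of these 4 the two-sided exact permutation p was 0.1, the smallest that 3 against 3 libraries allow, and 0.2 after Benjamini-Hochberg adjustment over the 8, so none could pass. On the longest protein-coding transcript the mean share of Socs2 was 36.4% with Fc alone against 45.2% in DEL-1-Fc and that of Cish 39.3% and 32.4%. On that length the shares of Socs4 and Socs6 were apart as well, and the difference in the Socs3 share was 0.479 percentage points in place of 1.25. The summed level was 187 to 203 RPKM in Fc and 195 to 218 RPKM in DEL-1-Fc, which overlapped.

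**Figure D4:**
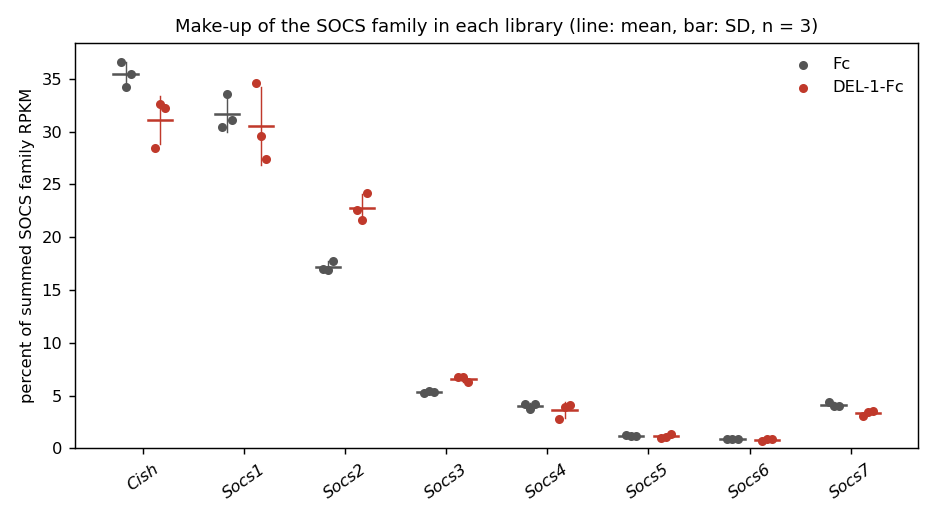
Percent of the summed SOCS family RPKM (per kilobase of all annotated exons) taken by each gene in each library, with mean and SD (n = 3). The Socs2 share is 16.9 to 17.8% with Fc alone against 21.6 to 24.2% in DEL-1-Fc, and the Cish share is lower in all 3 DEL-1-Fc libraries.

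Of the 7 STAT genes, whose products drive SOCS and Pim transcription, 5 fell and 2 did not pass, with a median log2 fold change of -0.39 beside 0.01 for all tested genes. Over all tested genes 12.6% were called, 6.4% as higher and 6.22% as lower. The same shares stand beside the counts of this list and of every list below. Stat4 (-0.59, SE 0.0578), Stat2 (-0.62, SE 0.0771) and Stat3 (-0.44, SE 0.0614) had the smallest p. Stat5a and Stat5b, the pair that acts on Cish, Socs2 and the Pim genes and named here after their values were seen, fell as well. Stat5a measured 372.9, 365.5 and 365.8 CPM with Fc alone against 265.2, 291.5 and 287.2 CPM in DEL-1-Fc (-0.39, SE 0.0629, edgeR adjusted p = 0.00447). Stat5b measured 273.8, 279.6 and 269.8 CPM with Fc alone against 201.2, 234.2 and 217.4 CPM in DEL-1-Fc (-0.33, SE 0.0696, edgeR adjusted p = 0.0147), but no longer passed when Fc replicate 1, 2 or 3 was omitted (adjusted p = 0.0744, 0.079 and 0.0614). Stat3 and Stat5a are neighbours that overlap on opposite strands, and the strand setting of the counting is not given in the sources used here.

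Among 17 cytokine receptor genes 4 rose, 4 fell and 9 did not pass (median 0.03). The risers were Ifngr1, the ligand-binding chain for interferon-γ (0.72, SE 0.0688), Il6st, encoding gp130, the docking chain for the Socs3 protein (0.52, SE 0.0872), Il9r (0.90, SE 0.152) from about 1 CPM, and Il6ra, the IL-6 binding chain (0.46, SE 0.097), which no longer passed when Fc replicate 1 or 3 was omitted (adjusted p = 0.086 and 0.0793). The 3 fallers with the smallest p were Il21r (-0.68, SE 0.0595), Il10ra (-0.98, SE 0.101) and Il12rb2 (-1.31, SE 0.165). The IL-2 receptor chains Il2ra (0.05), Il2rb (-0.07) and Il2rg (0.12) did not pass. Of the 4 Janus kinase genes only Tyk2 passed (-0.23, SE 0.0627, edgeR adjusted p = 0.0463), and that call was lost without any one Fc replicate, without DEL-1-Fc replicate 3 or with library sizes alone (adjusted p 0.1 to 0.178). Jak3 passed as lower with DESeq2 (-0.23, adjusted p = 0.0465) and Jak1 as higher on omitting DEL-1-Fc replicate 1 (0.17, edgeR adjusted p = 0.0377), both named after their values were seen.

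Of 10 tested cytokine genes whose products signal through JAKs, 6 fell and 4 did not pass, with a median of -0.65. Csf2, encoding GM-CSF (-1.94, SE 0.0733), Il13 (-2.47, SE 0.182) and Ifng (-1.49, SE 0.147), an inducer of Socs1, had the smallest p. Il2 itself measured 49.98, 47.0 and 42.3 CPM with Fc alone against 38.2, 31.2 and 37.3 CPM in DEL-1-Fc (-0.39, SE 0.0954, edgeR adjusted p = 0.0308, named after its values were seen). It no longer passed when Fc replicate 1 or 2 was omitted (adjusted p = 0.146 and 0.11), nor when DEL-1-Fc replicate 2 or 3 was (0.0607 and 0.0629). Recombinant IL-2 was present in both arms.

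Other STAT-regulated genes moved in both directions. Of 15 IL-2 and STAT5 targets 3 rose, 3 fell and 9 did not pass (median 0.03). Prf1, encoding perforin (1.05, SE 0.146), rose and Gzmb, encoding granzyme B (-1.14, SE 0.0898), fell. Foxp3 (0.54, SE 0.116) and Bcl2 (0.25, SE 0.0707) also rose, and Myc (-0.32, SE 0.0765) and Bcl2l1 (-0.30, SE 0.0739) fell, but none of these 4 calls survived every omission. The Foxp3 call ended without Fc replicate 1 or 3 or DEL-1-Fc replicate 1 (adjusted p 0.0753 to 0.0928), that of Myc without any one Fc replicate or DEL-1-Fc replicate 3 (0.081 to 0.131), and those of Bcl2 (0.076 to 0.211) and Bcl2l1 (0.0677 to 0.129) without any library but DEL-1-Fc replicate 1. Bcl2 also missed the threshold with a filter of 5 CPM and without robust dispersion (adjusted p = 0.0526 in both). Of 6 tested STAT3 targets 3 rose, Il17f (1.82, SE 0.161) and Bcl6 (0.89, SE 0.131) among them, with a median of 0.54. The other 3 did not pass, but Junb (-0.43, adjusted p = 0.00175) and Batf (-0.37, adjusted p = 0.00195), named after their values were seen, passed as lower on omitting DEL-1-Fc replicate 1, and Junb also with DESeq2 (adjusted p = 0.0276) and with no low-count filter (adjusted p = 0.0497). Of 11 interferon-γ targets 3 rose, 3 fell and 5 did not pass (median 0.06), with Gbp2 (0.72, SE 0.0744) and Gbp3 (0.59, SE 0.0793) up and Cxcl10 (-1.49, SE 0.165) and Icam1 (-0.54, SE 0.054) down. Of the other called genes, Ciita, the activator of MHC class II genes, failed without any one Fc replicate or DEL-1-Fc replicate 2 (adjusted p 0.0797 to 0.119), and Irf8 without any one Fc replicate (0.0564 to 0.092). On omitting DEL-1-Fc replicate 1 the number called lower was 5, with Tap1 and Psmb9 added.

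Genes for proteins that work with SOCS and Pim are given by list, beside the 12.6% called over all tested genes. Of the 6 partners of the SOCS-box ubiquitin ligase, Elob (elongin B) rose (0.25, SE 0.0652) and 5 did not pass, and the Elob call ended without any one Fc replicate or DEL-1-Fc replicate 3 (adjusted p 0.0993 to 0.175). Of 11 other brakes on JAK-STAT signalling, 1 rose, 2 fell and 8 did not pass. Usp18, which blocks the type I interferon receptor, fell from 82.6 to 26.3 CPM (-1.65, SE 0.125). Ptpn6, the phosphatase SHP-1 (-0.26, SE 0.0591), fell and Pias1 (0.23, SE 0.0556) rose, each call ending without any one Fc replicate (adjusted p 0.0882 to 0.115 for Ptpn6 and 0.104 to 0.14 for Pias1), and that of Pias1 also without DEL-1-Fc replicate 2 or 3 or a low-count filter (adjusted p 0.052 to 0.0665). Of 11 Pim substrates, 2 rose, 2 fell and 7 did not pass. Cxcr4 (0.85, SE 0.122) and Cdkn1b (0.29, SE 0.0769) rose and Cdkn1a, encoding p21 (-1.09, SE 0.0814), and Myc fell. The Cdkn1b call ended without any one library other than DEL-1-Fc replicate 1 (adjusted p 0.062 to 0.163). Cdc25a and Foxo1 were named after their values were seen. Cdc25a just missed the threshold (-0.23, SE 0.0648, edgeR adjusted p = 0.0512). It passed as lower with DESeq2 (adjusted p = 0.0175), with 1 other scaling and with either other filter. It also passed without DEL-1-Fc replicate 1 (-0.28, edgeR adjusted p = 0.00275). Foxo1 passed as higher without DEL-1-Fc replicate 3 (0.29, edgeR adjusted p = 0.047).

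**Figure D5:**
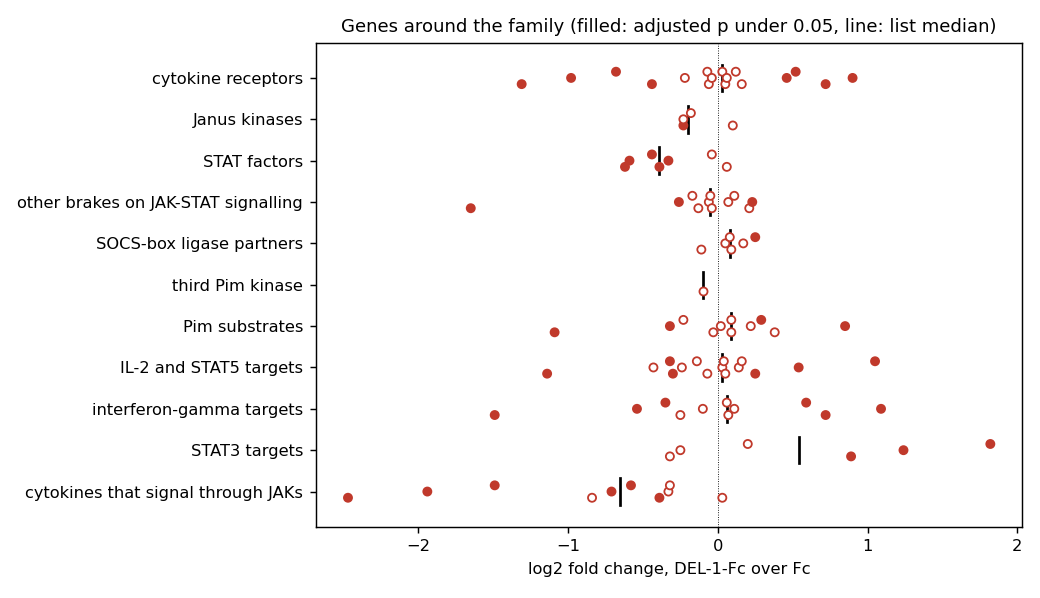
Log2 fold change, DEL-1-Fc over Fc, of each tested gene in the 11 lists around the family, filled where the edgeR adjusted p is under 0.05, with the list median as a line. The STAT factors (median -0.39) and the cytokines (-0.65) lie mostly left of 0, and the STAT3 targets have a median of 0.54.

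By the root mean square difference of log2(CPM + 0.5) over the 6 libraries, each gene centred on its own mean, the genes with the pattern most like Socs2 were Sertad3 (0.0306) and Ms4a6b (0.0338). Ppm1j (0.0337) was close to Socs3. These 3 genes were called higher, by log2 values of 0.43 to 0.48. With 6 libraries in 2 groups, such likeness reflects the shared group difference first.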

How the data were processed

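The authors deposited raw counts of reads per Ensembl gene, 1 file per library, made with STAR (no version given) and HTSeq 0.6.0 on GRCm38 (mm10), per the submitters' processing notes. The sources used here do not give the annotation release, strand setting or handling of multi-mapping reads. Symbols, coordinates and lengths came from GENCODE M21 (37693 of 39179 identifiers matched), promoters and microRNA from RefSeq (GRCm38.p6).

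Groups followed the titles. edgeR 4.0.16 (R 4.3.3) used filterByExpr (minimum count 10, minimum total 15), TMM, robust quasi-likelihood fits and Benjamini-Hochberg adjustment over 14928 genes. Standard errors were derived from the log2 fold change and its F statistic (|log2 fold change|/√F). The libraries held 33364166 to 61967687 counts each, and 3 counts are 0.0484 to 0.0899 CPM. Replicates differed beyond counting noise. The chi-square per degree of freedom was 20.0 to 21.9 between Fc libraries and 35.4 to 67.6 between DEL-1-Fc libraries. The members and lists were chosen with earlier results of these data known. Named were all members, up to 3 called genes per list and direction with the smallest p, and 2 genes most like each called member, and some of these are not reported here. DESeq2 1.42.0, limma 3.58.1 (voom), other scalings and filters, a replicate block and omission of each library were alternatives.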

Additional observations from a re-analysis of the deposited data

How the results depend on the processing

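The members called higher numbered 2 in every alternative with all 6 libraries, and 1 to 2 when a library was left out. The members called lower numbered 1 with DESeq2 and 1 without robust dispersion (Socs7 in both), 0 in the other alternatives with all libraries, and 0 to 2 when a library was left out. With 1 library left out, the log2 fold change of Socs1 ran from -0.10 to 0.15, Socs4 from -0.16 to 0.04, Socs5 from -0.06 to 0.09 and Socs6 from -0.07 to 0.05, and Socs6 was 0.01 with library sizes alone. The cause was not tested. The difference in family share (DEL-1-Fc minus Fc, percentage points) ran from -3.20 to 0.404 for Socs1 and from -0.147 to 0.0313 for Socs5 when a library was left out. For Socs2 it was 5.58 as reported, 8.22 in CPM and 8.87 on the longest protein-coding transcript, by construction of the length. For Socs3 it was 1.25, 0.543 and 0.479, and for Socs7 -0.771, -1.09 and -0.497, in the same order. The labels do not say whether libraries with equal replicate numbers were paired. Correlations of deviations were 0.02, 0.10 and 0.05 for equal numbers and -0.13 to 0.06 for unequal numbers. Not every library correlated best with its own number. The deviations are centred within 3 libraries per group, where weak pairing would hardly show, so these correlations cannot settle pairing. With the replicate block the count of genes called was 1510 instead of 1884, and Socs2 (0.49, adjusted p = 0.0118) and Socs3 (0.39, adjusted p = 0.0399) passed, while Tyk2 (adjusted p = 0.0693) and Pias1 (0.0638) did not. All genes called numbered 901 to 970 without an Fc replicate, 3003 without DEL-1-Fc replicate 1 and 1295 without DEL-1-Fc replicate 3. No scaling moved the median log2 fold change of all genes above 0.036.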
